A study of Homo sapiens with 8 samples.

Results

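The 48 genes described here encode 45 members of the nuclear receptor family and 3 proteins of the bHLH-PAS family, AHR, AHRR and ARNT, which are not nuclear receptors but include a ligand-activated transcription factor, its repressor and its dimer partner. The list was given by gene name, out of 20163 protein coding genes of the GENCODE annotation on GRCh37 (hg19). Peaks of the histone mark H3K27ac from 6 libraries were merged wherever they overlapped by 1 bp or more, which gave 49186 regions. The 240 regions that touched a member gene or the 20 kb on either side of it were examined. They lay at 44 of the 48 genes, and ESRRB, NR5A1, PGR and RORB had no region.

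Nuclear receptors are transcription factors that bind hormones, vitamin derivatives, sterols, fatty acids or foreign compounds and act on target genes through response elements in DNA. Steroid receptors act mostly as homodimers, a large class of ligand receptors pairs with a retinoid X receptor (RXR), and orphan receptors have no established physiological ligand. Acetylated histone H3 of the H3K27ac type marks active promoters and enhancers, so a peak over the start of a receptor gene marks an active start and does not measure the receptor protein.

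A549 is a lung adenocarcinoma cell line with mutated KEAP1, in which NRF2, the transcription factor of the oxidative stress response encoded by NFE2L2, is constitutively active. Cells received control siRNA (n = 3 libraries) or NRF2 siRNA (n = 3 libraries) and were harvested 48 h later for chromatin immunoprecipitation with an antibody to H3K27ac. siRNA 28 was used in replicate 1 and siRNA 30 in replicates 2 and 3, whereas the cell line, the serum-containing medium and the antibody were shared by all libraries. The study's methods describe 3 independent experiments. The peaks of replicate 1 are also named differently from those of replicates 2 and 3 in both groups, so siRNA 28 and that batch cannot be told apart. The 2 input DNA samples were not analysed here.

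Each library has a list of 23885 to 41571 peaks, and the lists hold no read counts. By the study's reporting, replicate 1 of each group was sequenced less deeply than replicates 2 and 3, and peak calls and ranks depend on depth. A region was described in each library by its within-list percentile, the share of the peaks of that list whose fold enrichment was at or below the highest of the region. The percentile did not remove differences between libraries. Among all regions with a coding start called in all 3 control libraries, its median was 62.4, 69.6 and 78.5 in the control libraries. With NRF2 siRNA it was 62.1, 67.9 and 72.8. Between groups, the rank of a region was turned into a normal score, where 0 is the middle rank of a library, and regions called in at least 3 libraries were compared by limma with Benjamini-Hochberg adjustment over all 32673 of them. Of the epithelial markers, KRT8, KRT18, EPCAM and CDH1 (4 of 5) had a start called in all 3 control libraries and KRT19 did not. The same was true of 0 of 3 alveolar type 2 markers (SFTPC, SFTPB and NKX2-1), 0 of 3 leukocyte, 0 of 2 endothelial and 0 of 3 fibroblast markers. The start of NFE2L2 had percentiles of 97.9, 98.1 and 98.2 in the control libraries and 94.6, 97.9 and 96.8 with NRF2 siRNA, but an siRNA acts on the transcript, so this does not check the knockdown.

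To find the receptors whose genes were active in A549, the start of each protein coding transcript was compared with the peak calls of the control libraries. A start was called in all 3 control libraries for 30 of the 48 genes (62.5%), against 44.6% of all protein coding genes. A further 5 genes (NR6A1, NR2C1, NR2E3, VDR and NR0B2) had a start called in 1 or 2 control libraries, and 13 had none. Several of these genes have many annotated starts, and when only the outermost start of each gene record was used, 22 genes remained. The share of all protein coding genes under that rule was not computed, so the 22 cannot be set against the 44.6%. The active member starts, with 1 region kept for each gene, had a median length of 4708 bp, and 8 of 30 (26.7%) spanned 10 kb or more. All regions with a coding start called in all 3 control libraries had a median of 2402 bp, and 7.68% spanned 10 kb or more. The 2 sets are unlike, since the member region kept was the one of highest mean control percentile, and the difference was not tested.

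**Figure D1:**
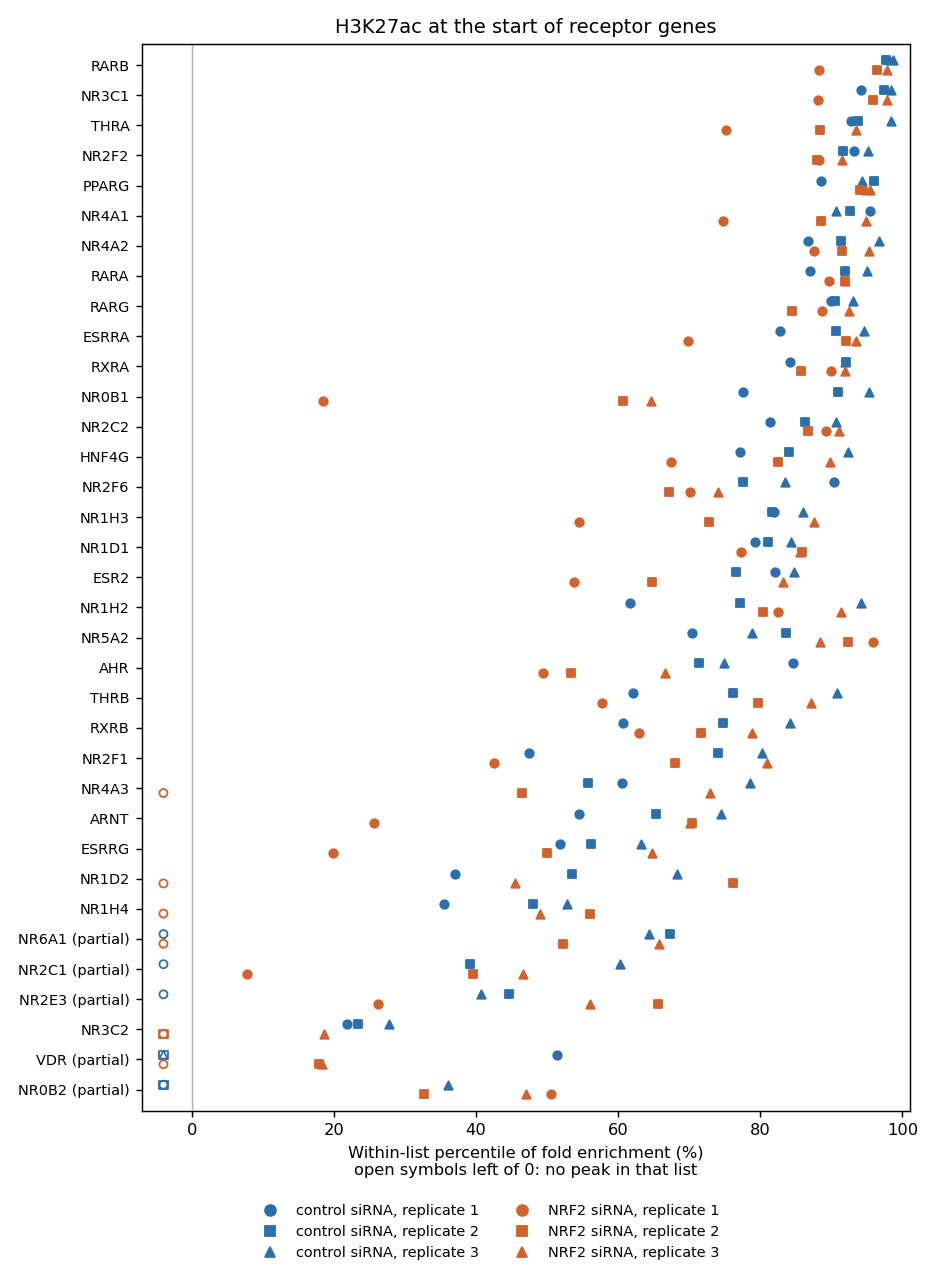
Within-list percentile (x axis, percent) of the start region of 35 receptor genes (y axis, ordered by the mean over the control libraries with an uncalled library as 0). Blue and orange symbols are the 3 control siRNA and 3 NRF2 siRNA libraries, open symbols mark libraries without a peak, and the retinoic acid receptor gene RARB and the glucocorticoid receptor gene NR3C1 lie at the top with control percentiles of 94.1 or more.

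Of the steroid receptors, the glucocorticoid receptor gene NR3C1 had a start region (chr5:142768791-142786033) at the percentiles 94.1, 97.4 and 98.5 in the control libraries. ESR2, encoding estrogen receptor beta, had 82.1, 76.6 and 84.8 at its start. NR3C2, encoding the mineralocorticoid receptor, was far lower, at 21.8, 23.4 and 27.7. PGR, the progesterone receptor gene, had no region, and the start of ESR1, encoding estrogen receptor alpha, was called in 1 NRF2 siRNA library alone, at the percentile of 6.59. Among the estrogen-related receptors, which act without estrogen, the start of ESRRA lay at 82.8, 90.7 and 94.6 and that of ESRRG at 51.8, 56.2 and 63.1.

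RXRA, encoding the heterodimer partner RXR alpha, was acetylated at an internal coding start (chr9:137266795-137273601) with control percentiles of 84.2, 92.1 and 91.9. Its most upstream coding start was not covered by any peak, although peaks flanked it in some libraries. RXRB reached 60.7, 74.7 and 84.2, in a region that also held a start of SLC39A7, and RXRG had no called start.

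Of the 14 ligand receptors that pair with RXR, 9 had an active start. RARB, encoding retinoic acid receptor beta, had the highest mean of all members, with 97.8, 97.6 and 98.7 in the control libraries over 16795 bp (chr3:25460083-25476877). RARA reached 86.9, 92.0 and 95.0, and RARG 89.9, 90.5 and 93.1, so all 3 retinoic acid receptor genes had a start in the upper part of every control list. The thyroid hormone receptor gene THRA had 92.8, 93.8 and 98.4, and its paralog THRB had 62.1, 76.1 and 90.9. PPARG, encoding the adipogenic receptor for fatty acid derivatives, had 88.5, 96.0 and 94.4 over 20987 bp (chr3:12340415-12361401), the longest start region of the active members. PPARA and PPARD, its paralogs, had no called start. Of the liver X receptor genes, which sense oxysterols, NR1H3 had 81.9, 81.7 and 86.0 in a region shared with a start of ACP2, and NR1H2 had 61.6, 77.1 and 94.2. The farnesoid X receptor gene NR1H4, which encodes the bile acid sensor, was lower, with 35.5, 48.1 and 52.8. The vitamin D receptor gene VDR had a start peak in control replicate 1 alone, at 51.4. No start was called for NR1I2 or NR1I3, the genes of the xenobiotic receptors PXR and CAR.

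The clock repressor gene NR1D1, encoding REV-ERB alpha, had control percentiles of 79.3, 81.1 and 84.4, and NR1D2, encoding REV-ERB beta, had 37.02, 53.4 and 68.3 in a region shared with NKIRAS1. RORA and RORB, the genes of the opposing activators, had no called start. RORA runs over 741.0 kb and had 2 regions in all, whereas THRB, over 378.6 kb, had 18.

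Of the 14 orphan receptor genes, 9 had an active start. NR2F2, encoding COUP-TFII, had 93.2, 91.7 and 95.2 over 17324 bp, and NR2F1, encoding COUP-TFI, had 47.4, 74.0 and 80.3. The immediate-early genes NR4A1 and NR4A2 had 95.4, 92.6 and 90.7, and 86.7, 91.4 and 96.7. NR2C2, HNF4G, NR2F6, NR5A2 and NR4A3 completed the list, with mean control percentiles from 64.9 (NR4A3) to 86.1 (NR2C2). The receptors without a canonical DNA-binding domain were split, since NR0B1 had an active start and NR0B2, encoding SHP, was called in 1 control library.

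AHR, the gene of the aryl hydrocarbon receptor, had 25 regions, more than any other member, along an annotated record of 429.8 kb. Its upstream start (chr7:17167727-17172951) lay at 84.6, 71.3 and 74.9 and its downstream start (chr7:17337519-17341831), a region that also held a coding start of the gene ENSG00000283321, at 63.2, 61.9 and 76.4 in the control libraries. ARNT, encoding its dimer partner, had 54.5, 65.3 and 74.4, and AHRR, encoding the repressor, had no called start. Across all members, the 10 highest starts had mean control percentiles from 89.4 (ESRRA) to 98.1 (RARB), with SDs of up to 5.99 (n = 3), and the control ranges of neighbours in this order overlapped.

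The effect of NRF2 knockdown on these regions was examined next. Of the 178 member regions tested, 7 (3.93%) had a lower score with NRF2 siRNA at a limma adjusted p under 0.05, against 3.39% of all tested regions, and 1 (0.562%) had a higher score, against 2.01%. These shares were near the background, so the receptor genes did not stand apart as a group in the number of changed regions. The median change in score was -0.078 for the member regions and 0.016 for all tested regions, and 109 of the 178 (61.2%) were negative against 48.5% of all. The lower regions lay at NR0B1 (2 regions), RXRA, PPARA, NR3C1, PPARG and AHR, and the higher region lay downstream of ESR1. Those at PPARA, NR3C1, PPARG and AHR had no peak with NRF2 siRNA and passed the filter through the control group alone. A difference was thus built into their selection. Of the 47 tested start regions, 1 (2.13%) was lower, that of NR0B1, and limma called 0 higher, against 1.05% lower and 0.282% higher of all 9932 tested regions with a coding start. An unadjusted p under 0.05 was found for 5 of the 47 (10.6%), near the 10.3% of all tested regions with a coding start. The exact permutation test of a single region cannot go below a p of 0.1 with 3 libraries against 3, and gave 0.1 for each of the 8 regions.

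**Figure D2:**
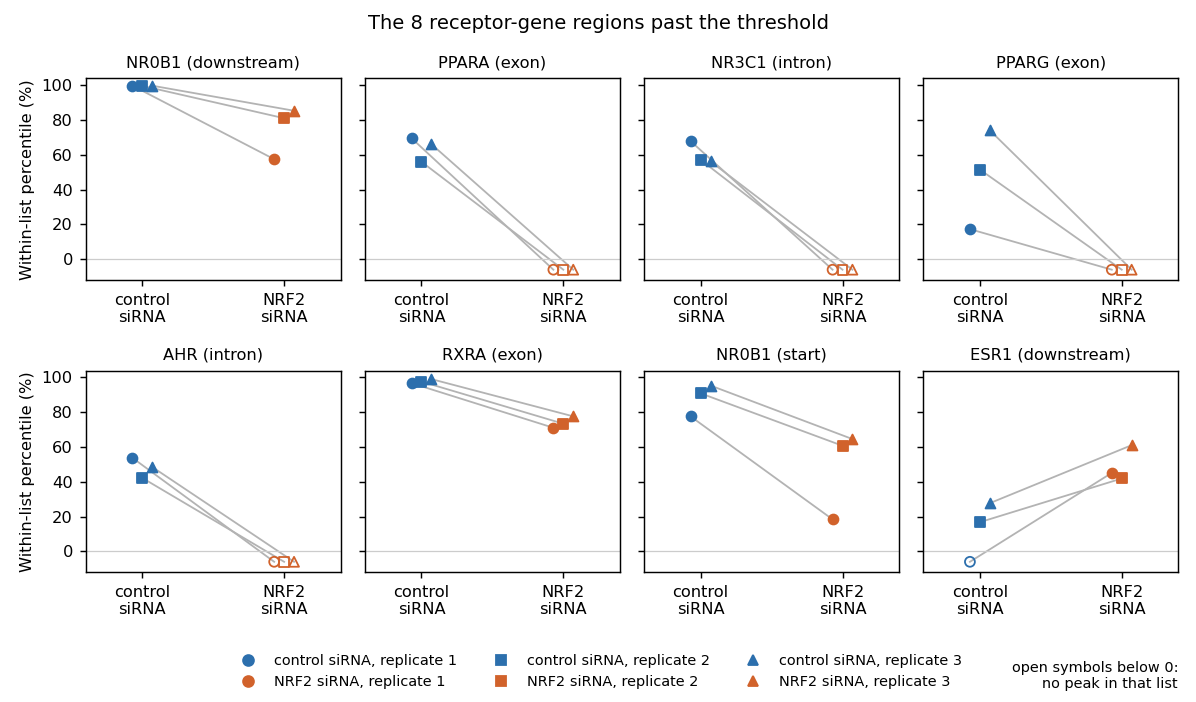
Within-list percentile (y axis, percent) of the 8 receptor-gene regions past the threshold, 1 panel each, with grey lines joining libraries of the same replicate number. The NR0B1 region downstream of the gene fell from 99.7 to 99.9 in the 3 control libraries to 57.5 to 85.4 with NRF2 siRNA, 4 regions had no peak in any NRF2 siRNA library, and the ESR1 panel is the sole one that rises.

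NR0B1 encodes DAX1, a corepressor-like receptor that binds other receptors and is known from KEAP1-mutant lung cancer cells as a gene under NRF2 control. A region downstream of the gene (chrX:30298066-30305334), 21271 bp from its nearest coding start, had percentiles of 99.9, 99.7 and 99.8 in the control libraries and 57.5, 81.1 and 85.4 with NRF2 siRNA. Its deposited fold enrichments were 18.5, 18.1 and 23.4, and 4.13, 6.96 and 8.01, so the groups did not overlap on either scale. Counted from the highest fold of each list, its ranks were 40, 92 and 70 in the control libraries and 10142, 6606 and 5701 with NRF2 siRNA. The score fell by 2.09 (SE 0.21, adjusted p = 0.00628), the largest fall of the 178 member regions. No other protein coding start lay closer than that of MAGEB1, at 32803 bp. The adjusted p stayed under the threshold in 5 of 6 fits that left out a library and was 0.0504 without control replicate 2.

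The NR0B1 start region (chrX:30318135-30327663) went the same way. Its percentiles were 77.6, 90.9 and 95.4 in the control libraries and 18.4, 60.7 and 64.6 with NRF2 siRNA, again without overlap. The score fell by 1.12 (SE 0.23, adjusted p = 0.0294). Within it, peaks covered 8525 to 9508 bp in the control libraries and 3394, 7754 and 8533 bp with NRF2 siRNA. Leaving out 1 library moved the adjusted p to 0.0316 without control replicate 1, 0.104 and 0.112 without control replicates 2 and 3, 0.044 without NRF2 siRNA replicate 1, and 0.106 and 0.0706 without replicates 2 and 3.

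**Figure D3:**
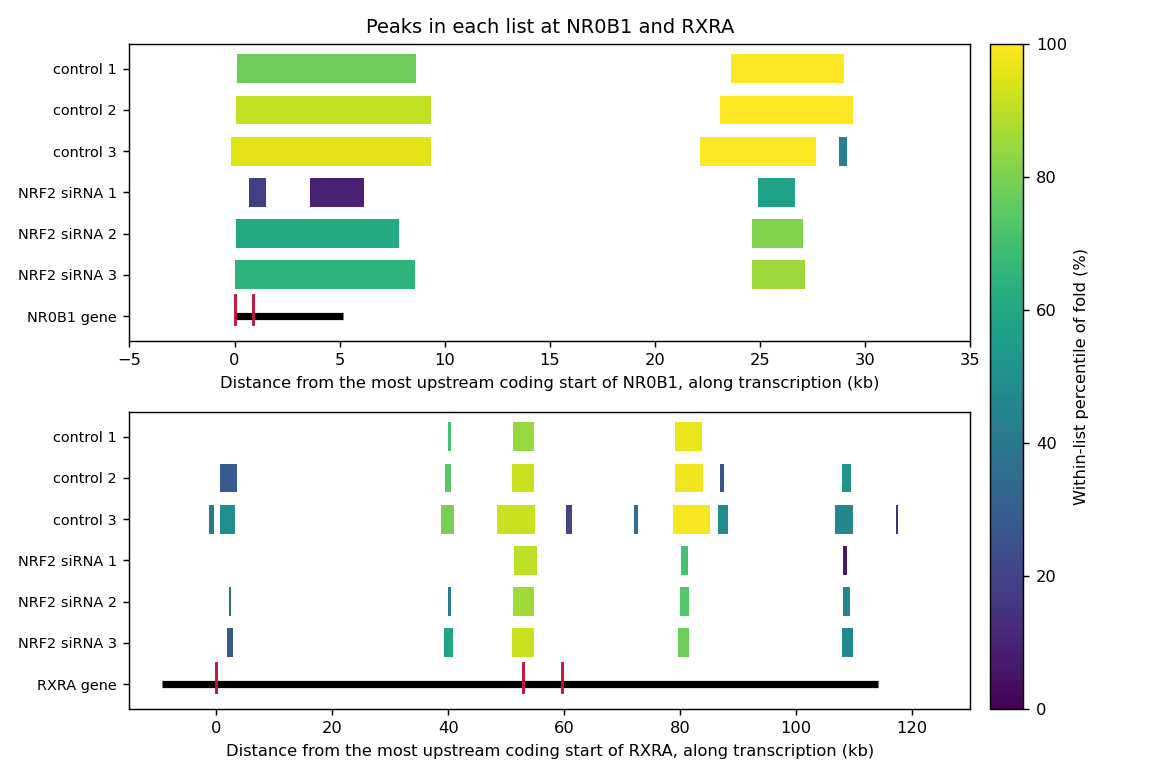
Peaks in each list (rows) at NR0B1 and RXRA, as distance in kb from the most upstream coding start along the direction of transcription, coloured by within-list percentile. Black bars are the genes and red ticks the coding starts, and in both genes the most strongly coloured control peaks, downstream of NR0B1 and inside RXRA, are shorter and lower in the 3 NRF2 siRNA lists.

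In RXRA, an internal region that overlapped an exon (chr9:137297120-137303456), 19152 bp from the nearest coding start, had control percentiles of 96.8, 97.7 and 99.1 and NRF2 siRNA percentiles of 71.1, 73.4 and 77.7. The fold enrichments were 11.2, 12.8 and 18.4, and 4.72, 5.91 and 6.51, so every control library was above every NRF2 siRNA library. The score fell by 1.35 (SE 0.21, adjusted p = 0.0122). The active RXRA start, by contrast, had 90.0, 85.7 and 91.9 with NRF2 siRNA, within the range of the control libraries, and its score changed by 0.02 (adjusted p = 0.975). The difference between the 2 RXRA regions was not tested. Without control replicates 2 and 3 the adjusted p of the internal region was 0.0586 and 0.0617, and without NRF2 siRNA replicate 2 it was 0.0698.

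The other 4 lower regions had a peak in each control library and none in any NRF2 siRNA library. They passed the filter of 3 libraries through the control group alone, so a difference was built into their selection, and their values are given as a description. In PPARA, the receptor gene for hepatic fatty acid oxidation, a region over an exon (chr22:46566101-46569531) had percentiles of 69.6, 56.1 and 66.2 in the control libraries (score change -1.84, adjusted p = 0.0169). In NR3C1, an intronic region (chr5:142713152-142716087) 64330 bp from the nearest coding start of the gene had 67.9, 57.2 and 56.3 (-1.73, adjusted p = 0.0233). In PPARG, a region over an exon (chr3:12464483-12467256) had 17.3, 51.6 and 74.2 (-1.55, adjusted p = 0.032). In AHR, an intronic region (chr7:17080582-17083939) had 53.8, 42.2 and 48.6 (-1.42, adjusted p = 0.0395). An absent peak means that the region was not called, not that the mark was absent.

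The calls at these 4 regions depended on single libraries and on the processing. With equal list lengths the AHR change was -0.86 (adjusted p = 0.104), and at a q-value of at most 1e-05 the PPARA change was -1.004 (adjusted p = 0.212) and the NR3C1 change -0.82 (adjusted p = 0.345). Leaving out NRF2 siRNA replicate 1 kept all 4 under the threshold. Without control replicate 1, PPARA (0.046) and PPARG (0.0451) stayed under it and NR3C1 (0.0569) and AHR (0.0911) did not. Without control replicate 2 or 3, or NRF2 siRNA replicate 2, none did, with adjusted p from 0.0649 to 0.148, and without NRF2 siRNA replicate 3 PPARA (0.0457) alone did, against 0.0602 (NR3C1), 0.0816 (PPARG) and 0.103 (AHR).

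The 1 region with a higher score lay downstream of ESR1 (chr6:152456502-152458464), 254710 bp from the nearest ESR1 start and 12305 bp from a start of SYNE1, inside the SYNE1 gene. It had no peak in control replicate 1 and percentiles of 16.8 and 27.7 in control replicates 2 and 3, against 45.1, 41.9 and 61.1 with NRF2 siRNA. The groups did not overlap, and the score rose by 1.06 (SE 0.22, adjusted p = 0.0306). It stayed under the threshold without NRF2 siRNA replicate 1 (0.0415) and not in the other 5 fits that left out a library (0.0684 to 0.105). With no filter on regions the change was 0.855 (adjusted p = 0.0846).

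Same-numbered libraries deviated together, so the comparison was repeated with the replicate number as a block. With it, 13 member regions were lower (7.3%, against 6.62% of all) and 5 higher (2.81%, against 5.72% of all), and they included all 8 above. The 6 further lower regions lay in RXRA, NR3C2, NR3C1, NR1H2 and AHR and upstream of NR2E3. The strongest of them, an RXRA intronic region (chr9:137256989-137259246), had 70.0, 73.5 and 79.2 in the control libraries, no peak in NRF2 siRNA replicate 1, and 41.9 and 57.9 in replicates 2 and 3 (score change -0.996, adjusted p = 0.0322 with the block). The NR3C2 intronic region (chr4:149350771-149354144) had 85.0, 76.8 and 70.6 against 39.5, 46.5 and 35.1, with no overlap (-0.89, adjusted p = 0.0195 with the block and 0.118 without it). The 4 further higher regions were the NR0B2 start, an NR1D2 region over an exon, and intronic regions of VDR and NR6A1. The VDR and NR6A1 regions passed the filter of 3 libraries through the NRF2 siRNA group alone, and the further AHR region through the control group alone. A difference was thus built into the selection of these regions, and they are given as a description.

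Within the siRNA 30 pairs alone, which leaves out the batch of replicate 1, 13 member regions were lower (7.3%, against 6.04% of all) and 7 higher (3.93%, against 5.26% of all), with all 8 among them. These pairs are part of the same libraries, so the overlap is not an independent result. The lower regions of PPARA, PPARG, AHR and ESR2 and the NR3C1 region named above had no peak with NRF2 siRNA. The higher intronic regions of VDR and NR6A1 had none in the controls. All of these passed the filter of 3 libraries through 1 group alone, so a difference was built into their selection. In the siRNA 30 pairs the NR0B1 downstream region fell by 1.91 (adjusted p = 0.00664) and the RXRA internal region by 1.49 (adjusted p = 0.01). NR1D2, a repressor of the clock, had 2 of the 7 higher regions, both over exons. The first (chr3:24000116-24001524) had no peak in control replicate 2, 5.41 in control replicate 3, and 50.0 and 50.4 with siRNA 30. The second (chr3:24004666-24005907) had no peak in either of these control libraries and 46.4 and 52.5 with siRNA 30. In the siRNA 28 pair the first went the other way, with 45.8 in control replicate 1 and no peak with NRF2 siRNA.

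**Figure D4:**
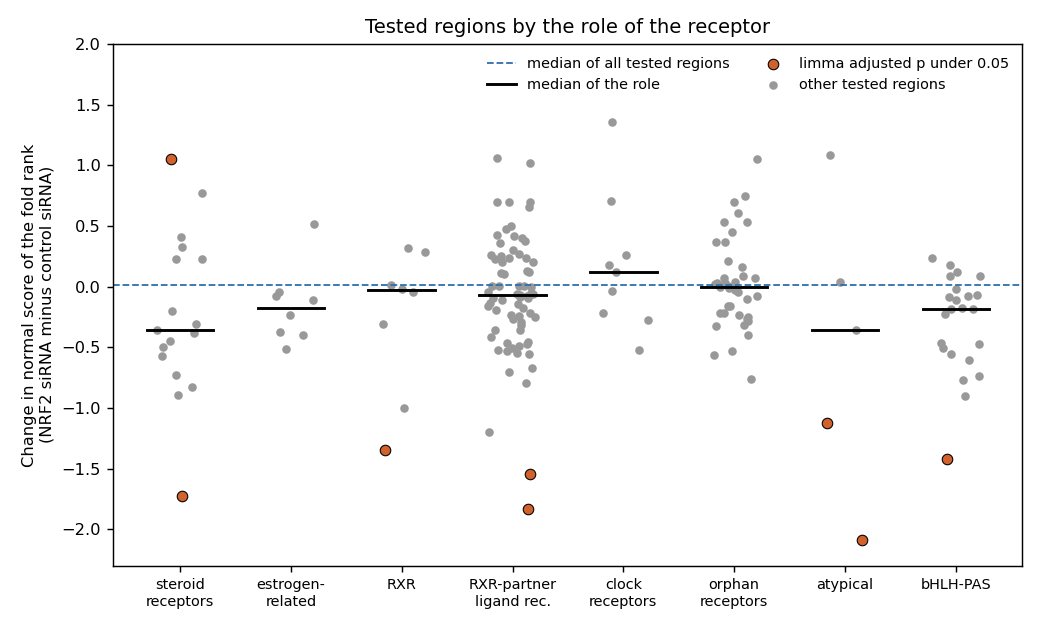
Change in normal score (y axis, NRF2 siRNA minus control siRNA) of each tested region, grouped by the role of the receptor (x axis). Orange points passed the threshold, black bars are the medians of each role and the dashed line is the median of all tested regions, and the orange points are spread over 5 of the 8 roles.

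By role, the changed regions were spread over 5 of 8 classes, where 3.39% of all tested regions were lower and 2.01% higher. Steroid receptor genes had 1 lower and 1 higher of 17 tested regions, RXR genes 1 lower of 8, RXR-partner ligand receptors 2 lower of 71, the atypical receptors 2 lower of 5 and the bHLH-PAS genes 1 lower of 23. The lower regions of the steroid, RXR-partner and bHLH-PAS classes were those called in the control libraries only. Lower regions with peaks in both groups thus lay in the RXR and atypical classes. The orphan receptor genes had 40 tested regions, of which limma called 0 and 5 had an unadjusted p under 0.05. For the 9 regions of the clock receptors the corresponding numbers were 0 and 1, and for the 8 of the estrogen-related receptors 0 and 2. Over all tested regions, 22.5% had an unadjusted p under 0.05.

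Most receptor starts did not pass the threshold. With NRF2 siRNA the RARB start had 88.2, 96.4 and 97.8, of which replicate 3 lay within the control range and replicate 1 was lowest (score change -0.35, adjusted p = 0.377). The NR3C1 start had 88.1, 95.9 and 97.8 (-0.20, adjusted p = 0.661), overlapping the control libraries. The THRA start had 75.2, 88.4 and 93.5 (-0.52, adjusted p = 0.229), of which the highest alone lay within the control range. PPARG had 94.4, 94.0 and 95.5 (0.13, adjusted p = 0.763), and RARA had 89.7, 91.9 and 91.9 (-0.002, adjusted p = 0.997). The NR1H3 start had 54.4, 72.7 and 87.6 (-0.23, adjusted p = 0.582), a wider spread than among the control libraries. Of the 30 active starts, 22 had a negative and 8 a positive change, from -1.12 (NR0B1) to 0.70 (NR5A2). They were chosen on their control calls and percentiles, so a lean towards negative changes was built into their selection. Among all 47 tested member starts 30 (63.8%) were negative, against 57.8% of all tested regions with a coding start.

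NR5A2, encoding LRH-1, a regulator of bile acid and steroid metabolism, had the largest positive change among the active starts. Its start region (chr1:199988903-199999263) had 70.3, 83.6 and 78.9 in the control libraries and 95.8, 92.3 and 88.3 with NRF2 siRNA, so every NRF2 siRNA library was above every control library. The change of 0.70 did not pass the threshold (adjusted p = 0.138), but it did with trended robust moderation (adjusted p = 0.0479). At AHR, the upstream start had 49.4, 53.4 and 66.6 with NRF2 siRNA, below all control libraries, and also did not pass (-0.47, adjusted p = 0.298), whereas the downstream start had 59.3, 63.3 and 69.2 (-0.02, adjusted p = 0.969). At VDR, NRF2 siRNA replicates 2 and 3 had a start peak at 18.0 and 18.4 and replicate 1 had none (0.27, adjusted p = 0.819). In the siRNA 30 pairs alone the VDR change was 0.97 (adjusted p = 0.0498).

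The order of the libraries was also compared without a model. Every control percentile was above every NRF2 siRNA percentile in 33 of the 178 tested member regions (18.5%), against 12.8% of all tested regions, and every one was below in 8 (4.49%), against 7.39%. An uncalled library counted as 0 here. The 33 thus include the 7 regions called in the control libraries only, and the 8 include the 2 called with NRF2 siRNA only. For these a difference was built into the selection, and the counts are given as a description. Among the 47 tested start regions the controls were above in 6 (12.8%) and below in 1 (2.13%). The shares over all tested regions with a coding start were not computed. Those over all tested regions include regions without a start, which are unlike, so these counts have no matching background. Besides NR0B1, AHR and NR5A2, these starts included that of NR2F2, with 88.3, 88.0 and 91.5 with NRF2 siRNA against 91.7 as the lowest control percentile. NR2F6, encoding EAR2, a repressive COUP-TF-like receptor, had 70.0, 67.1 and 74.0 with NRF2 siRNA against 90.4, 77.5 and 83.5 (-0.40, adjusted p = 0.394). NR3C2 kept a start peak in NRF2 siRNA replicate 3 alone, at 18.6, and a second, internal start of RARA (chr17:38496725-38503152) had 28.1, 45.1 and 42.0 against 47.5, 47.9 and 74.5.

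Regions of the same gene were also described together, where 48.5% of all tested regions had a negative change. The control libraries were all above the NRF2 siRNA libraries in 12.8% of all tested regions and all below in 7.39%. At AHR, 15 of 20 tested regions had a negative change (median -0.18, range -1.42 to 0.24), of which 1 passed the threshold, and in 8 of them the control libraries were all above the NRF2 siRNA libraries, with 0 the other way round. The longest AHR region (chr7:16953656-16968830), 15175 bp at the far upstream end of the record, had 90.4, 94.7 and 81.4 against 91.4, 81.2 and 81.0, so the groups overlapped there. At RARB, 10 of 12 tested regions were negative (median -0.34), and 6 had all control libraries above all NRF2 siRNA libraries. The most changed of them (chr3:25621962-25626670), over an exon 122161 bp from the nearest start, had 90.3, 82.6 and 77.0 against no peak, 49.9 and 62.7 (-1.20, adjusted p = 0.0651). THRB, its neighbour on the chromosome, was balanced, with 7 negative and 7 positive of 14 tested regions. NR5A2 had 5 positive of 8 (median 0.20), among them a downstream region (chr1:200147771-200151353) at 37.04, 10.8 and 40.2 against 43.9, 50.2 and 45.5. The AHR and RARB counts include regions called in the control libraries only, where a difference was built into the selection. Regions of 1 gene share libraries and neighbourhood and are not independent of each other, and none of these counts was tested.

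Presence and absence of peaks was compared over the same regions. Of the 240, 7 (2.92%) were called in all control libraries and no NRF2 siRNA library, against 2.27% of all regions, and 2 (0.833%) showed the reverse, against 0.83%. Besides the 4 regions above, the control-only regions were a second AHR intronic region (chr7:17250225-17252651, 18.7, 19.0 and 23.1), an ESR2 intronic region (chr14:64660759-64661710, 10.7, 14.8 and 27.8) and a RARB intronic region (chr3:25479504-25481414, 14.4, 3.17 and 14.5). All lay in the lower part of the lists. The regions seen with NRF2 siRNA alone were intronic in NR6A1 (chr9:127427192-127428599, 6.75, 10.5 and 35.1) and VDR (chr12:48290106-48291596, 3.29, 16.1 and 27.9), likewise near the lower end.

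The sequence under the changed regions was searched on both strands for TGACNNNGC, the core of the antioxidant response element through which NRF2 acts with small MAF proteins. The core was present in 57.5% of the 240 member regions and in 52.71% of all 49154 regions on the 24 chromosomes, and in 88.54% of the 1108 regions with a lower score genome-wide. All 7 lower member regions held it and the higher region at ESR1 did not. It is common in regions of this size, since 64.2% to 94.8% of regions of similar length hold it. The RXRA region had 6 cores, a number reached by 5.4% of regions of similar length. The PPARG region alone among the 8 held TGACTCAGC, a form of the core that also contains a TGACTCA element of AP-1 and is present in 8.9% of regions of its length, in 9.11% of all regions, in 50.99% of those with a lower score and in 3.75% of the member regions; this form was looked for after the values had been seen. A match is a description of the letters and not a bound site.

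The cores that follow a purine, as in the full element, are shown with 10 bases on either side, 5′ to 3′ on the named strand of GRCh37 with the core in capitals, because these are the letters of the changed regions that come closest to the element. They number 1 in each of both NR0B1 regions, NR3C1, PPARG and AHR, 2 in PPARA and 4 in RXRA, of which 3 are shown, a condition that was also added after the values had been seen and that is met by 41.25% of the member regions and 38.22% of all regions.
NR0B1 downstream, chrX:30304328-30304356, minus strand: catgttgacaTGACCGGGCttttgttttc
NR0B1 start region, chrX:30318452-30318480, plus strand: cttctctgtaTGACCCAGCcatataccct
RXRA site 1, chr9:137297542-137297570, minus strand: gcacaggccaTGACTCTGCaggtccaggt
RXRA site 2, chr9:137302222-137302250, minus strand: gcccagcatgTGACCCTGCgcaaggcttg
RXRA site 3, chr9:137303053-137303081, minus strand: ggcacatggaTGACTGGGCtgcagggcct
PPARA site 1, chr22:46567109-46567137, minus strand: ccaaaatagaTGACTCGGCatctgccagc
PPARA site 2, chr22:46567335-46567363, plus strand: gctggcctggTGACTTAGCcgccttcagg
NR3C1 intron, chr5:142714031-142714059, minus strand: cgatttcagaTGACACAGCacccaatgta
PPARG exon region, chr3:12465920-12465948, minus strand: gggacaggaaTGACTCAGCattcgacccc
AHR intron, chr7:17082678-17082706, plus strand: tatctcaccaTGACAAAGCagtaaagctc

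Genes that work with the receptors were examined in the same way. Of 12 coregulator genes, 7 had an active start, among them NRIP1, encoding a corepressor of ligand-bound receptors, at 96.8, 97.1 and 98.7 in the control libraries. Of their 49 tested regions, 1 was lower (2.04%, against 3.39% of all) and limma called 0 higher (2.01% of all). An unadjusted p under 0.05 in either direction was found for 7 (14.3%), against 22.5% of all tested regions. The lower one was an intronic region of PPARGC1B, a coactivator gene of mitochondrial metabolism (chr5:149184430-149187124), with 83.5, 95.0 and 97.1 against 25.4, 69.9 and 75.0 (-1.14, adjusted p = 0.0355).

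Of 24 target genes of the receptors, 16 had an active start. The vitamin D target CYP24A1, which encodes the enzyme that inactivates vitamin D, had a start region of 83290 bp at 98.9, 98.9 and 99.5 in the control libraries, while the start of VDR itself was called in 1 of them. DHRS3, a retinoid-metabolizing target of the retinoic acid receptors, had 98.5, 98.6 and 99.8, and SREBF1, the liver X receptor target that drives fatty acid synthesis, had 96.6, 99.1 and 99.8. Of the 85 tested target regions, 2 were lower (2.35%, against 3.39% of all) and limma called 0 higher (2.01% of all). An unadjusted p under 0.05 was found for 13 (15.3%), against 22.5% of all tested regions. The first lower region lay at the start of TSC22D3, the glucocorticoid-induced gene GILZ, with 55.0, 64.2 and 64.0 against no peak, 19.5 and 43.6 (-0.94, adjusted p = 0.0393). The second lay upstream of CPT1A, the gene of mitochondrial fatty acid import, with 75.0, 45.4 and 60.5 against no peak, 15.8 and 15.0 (-1.22, adjusted p = 0.0434). The identity markers had 2 higher of 33 tested regions (6.06%, against 2.01% of all), upstream of KRT19 (no peak, 10.5 and 8.58 against 66.5, 84.3 and 73.6) and between DCN and LUM.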

How the data were processed

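ChIP-seq of H3K27ac was analysed in 6 libraries. Per the study's methods and processing notes, single-end reads were mapped by the authors with Bowtie2 (2.2.6) on hg19, and they removed reads of mapping quality under 20 and blacklisted regions, and called broad peaks in each library with MACS2 (2.1.0.20151222). The deposited lists hold a display score, the fold enrichment over background, and the −log10 p-value and −log10 q-value of each peak, without read counts. The background used was not given in the sources used here. From these lists, peaks were merged at an overlap of 1 bp, the highest fold of a region was ranked within each library (uncalled regions shared the lowest rank), ranks were turned into normal scores, and regions called in at least 3 libraries were compared with limma (3.58.1, R 4.3.3) at an adjusted p under 0.05. The fit was also run on simulated scores drawn independently for each library. These lacked the tied lowest ranks and the correlation within replicate numbers given below, so they do not show how the fit behaves under those conditions. Other steps used Python (3.11.15), pandas (2.3.3), scipy (1.17.1) and pysam (0.24.0). An active start is a region that overlaps the start base of a protein coding transcript and is called in all 3 control libraries. Deviations from the group means correlated within replicate numbers (r = 0.398, 0.199 and 0.363 across regions). List length also rose with the replicate number in both groups, and its part in the correlation was not tested. The block was run as an alternative because the study averaged its experiments without one. Other alternatives were list length, a stricter q-value, merging distance, filters, moderation, gene window, siRNA 30 alone and leaving out each library. The regions described in full were those past the threshold, those called in 1 group only, the 10 highest active starts and the starts of 8 receptors. PECAM1 was not used because the annotation lacks it. The members, gene lists and rules were chosen with earlier results of these data known. Of the coregulator genes and RXRA sequence matches, 1 each is counted but not reported here.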

Additional observations from a re-analysis of the deposited data

Results flagged for a closer look

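Among the regions described, 2 start regions moved in opposite directions with the 2 NRF2 siRNAs, a difference that was not tested and that holds for 21.9% of all tested regions. The change at the RARA start with siRNA 28 minus the mean change with siRNA 30 was 0.339. The same difference at the VDR start was -2.099, from pair changes of -1.13 with siRNA 28 and 0.912 and 1.026 with siRNA 30. siRNA 28 and the batch of replicate 1 cannot be told apart.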

How the results depend on the processing

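The main counts were 7 lower and 1 higher member regions, 7 called in controls only and 2 with NRF2 siRNA only. With the replicate block, 13 were lower and 5 higher, with trended robust moderation 12 and 4, and with the siRNA 30 pairs 13 and 7. With equal list lengths they were 11 and 3, and with the replicate block added to equal lengths, chosen after seeing the data, 17 and 8. A q-value of at most 1e-05 gave 3 and 0, regions called in all 6 libraries 4 and 0, no filter 7 and 0, a 5 kb window 6 and 0, and a 100 kb window 10 and 4. In these limma fits with 0 higher regions, 5, 4, 16 and 10 had an unadjusted p under 0.05. Leaving out 1 library gave 0 to 10 lower and 0 to 1 higher. Without control replicate 2, limma called 0 and 0 (19 and 14 at an unadjusted p under 0.05), and 0 of all 32673 regions. Without control replicates 1 and 3 the lower count was 5 and 1, and without NRF2 siRNA replicates 1, 2 and 3 it was 10, 1 and 3. Peaks called in controls only numbered 2 at the stricter q-value and 7 to 13 over the fits without 1 library, with 13 and 11 without control replicates 1 and 2. Peaks called with NRF2 siRNA only numbered 4 with equal list lengths, 0 at the stricter q-value and 2 to 8 without 1 library, with 8 without NRF2 siRNA replicate 1. The number of active starts ranged from 22 to 33 of 48.

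Small score changes turned sign at 4 starts. PPARG had -0.025 and RXRA -0.151 in the siRNA 30 pairs, and RARA had 0.009 with a length-weighted fold. Without 1 library, RARA ranged from -0.07 to 0.065, RXRA from -0.087 to 0.132 and VDR from -0.213 to 1.009. The causes of these shifts were not tested. Of the other values for single regions, 284 neither changed sign nor crossed the threshold, 34 lost the call and 9 gained it. The 284 include values of regions that did not pass in the main fit, and such regions had no call to lose. Settings in which a region was not tested were not counted. Lists without read counts limit precision, and a weak mark below the calling threshold of a shallow library cannot be told from an absent one.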
